A study of Mus musculus with 10 samples.

Results

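The genes described here are 10 markers of blood vessel endothelium, 6 of the liver sinusoid (Stab1, Stab2, Oit3, Lyve1, Clec4g and Fcgr2b) and 4 of endothelium in general (Pecam1, Kdr, Cdh5 and Esm1), followed through mouse livers that lack Gnmt. Gnmt is the gene of glycine N-methyltransferase, which spends S-adenosylmethionine in hepatocytes, and knockout mice develop liver tumours. Where a gene has several probe sets, the brightest on average over the 10 Affymetrix arrays was read, so the 10 genes are 10 of 18194 genes named on the array. Of these 10, 9 passed the filter on dim genes that 11021 genes passed in all, and Pecam1, with a mean signal of 87.6, did not.

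All mice were of a mixed 129/B6 strain. At 11 weeks there were 2 wild-type and 2 Gnmt knockout liver RNA pools, each mixed in equal parts from 3 mice of 1 sex, so that each genotype had a female and a male pool. Another 6 arrays held tissue of aged knockout mice, all without Gnmt and with no aged wild-type liver beside them. They were nodule tissue (dysplasia) and the liver beside it from a female of 21 months, and hepatocellular carcinoma (HCC) and adjacent liver of a male of 18 months and of a female of 14 months. Lesion and adjacent liver were paired because they share sex and age, since the labels give no mouse numbers. A pool carries no spread between mice, and p-values measure the spread between arrays.

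Sinusoidal endothelial cells line the liver's capillaries. They are fenestrated, lack a continuous basement membrane, and clear waste from the blood through scavenger receptors. In chronic liver disease and in HCC they are known to lose sinusoidal genes and to take on features of ordinary capillaries, a process called capillarization. Genes such as Pecam1, Kdr and Cdh5 are made by endothelium of all organs, so a loss of sinusoidal character and a change in the amount of endothelium can be described by setting the classes side by side.

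The array signals checked the genotype labels. Gnmt had signals of 59473 and 52140 in the wild-type female and male pools, 190.0 and 245.2 in the young knockout male and female pools, and 11.7 to 329.4 on the aged arrays. Over the arrays, summed signals were 4835 to 13820 for the 6 sinusoidal genes and 737 to 2158 for the 4 general genes. Single genes were dim on some arrays. Esm1 was at 3.1 and 10.3 in the young knockout male and female pools, and Pecam1 at 18.4 beside the nodule. Summed signals of 8 hepatocyte markers were 301621 to 439699. The spiked control ratio BioC over BioB was 3.90 to 5.09 on the 4 young arrays and 1.45 to 1.84 on the 6 aged ones. What sets that ratio was not tested, and it cannot be told apart from age. In bulk liver, fewer endothelial cells and less RNA per cell cannot be told apart either.

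The region upstream of the start site is shown for the gene with the largest called loss in young knockout liver (Stab2), for a sinusoidal gene whose level set the male HCC mouse apart (Clec4g), and for the gene with the largest lesion difference (Esm1). Each sequence is the 250 bases before the start in RefSeq's GRCm38.p6 table, written 5′ to 3′ on the gene's strand, and capitals mark matches to an ETS core (AGGAAG or CGGAAG on either strand). Stab2 lies at chr10:87007943-87008192 on the minus strand, Clec4g at chr8:3720652-3720901 on the minus strand, and Esm1 at chr13:113209409-113209658 on the plus strand.
Stab2: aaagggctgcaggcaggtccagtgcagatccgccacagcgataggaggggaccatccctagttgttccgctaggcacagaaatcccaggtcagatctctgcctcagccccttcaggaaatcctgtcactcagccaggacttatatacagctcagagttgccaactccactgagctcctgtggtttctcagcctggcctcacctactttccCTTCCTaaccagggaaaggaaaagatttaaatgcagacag
Clec4g: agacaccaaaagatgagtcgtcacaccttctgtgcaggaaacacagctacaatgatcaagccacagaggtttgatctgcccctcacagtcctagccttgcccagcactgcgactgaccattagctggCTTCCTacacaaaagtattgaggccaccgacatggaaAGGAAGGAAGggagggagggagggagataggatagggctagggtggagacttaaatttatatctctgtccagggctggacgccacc
Esm1: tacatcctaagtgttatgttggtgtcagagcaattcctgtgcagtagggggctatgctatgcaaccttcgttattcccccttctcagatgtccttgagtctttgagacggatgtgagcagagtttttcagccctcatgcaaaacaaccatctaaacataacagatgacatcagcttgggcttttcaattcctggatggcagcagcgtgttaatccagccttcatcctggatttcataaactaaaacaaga
For Stab2 and Clec4g, 96 and 44 of these bases lie inside the annotated span of the gene, which has a longer transcript, and the Esm1 window ends at the gene's own start. Stab2 held 1 ETS match, Clec4g held 3, of which an overlapping pair shares its middle bases, and Esm1 held 0. ETS proteins include the endothelial factors Erg and Fli1. Of the 10 genes, 6 had a promoter in the table (Stab1, Stab2, Clec4g, Fcgr2b, Kdr and Esm1), and 3 of the 6 held an ETS match, beside 39.3% of all 32536 promoters of that length. All 250 bases of the Kdr window and 10 of the Stab1 window lie inside the annotated span of the gene. A GATA match (AGATAA or TGATAA, either strand) was found in 0 of 6 and in 16.5% of all, and a MAF match (TGCTGA, either strand) in 1 of 6, Stab1, and in 16.1% of all. GATA4 and c-Maf are factors of sinusoidal identity, and the matches describe letters in a window, not binding.

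In young liver the sinusoidal genes Stab2 and Oit3 fell without Gnmt, and the other 7 endothelial genes tested had negative differences that did not pass the test. Of the 9 genes tested, 2 were called lower, where 0.898% of all genes were called lower and 1.76% in either direction (19.6% had an unadjusted p under 0.05). Both knockout pools lay below both wild-type pools for each of the 9 genes past the filter, against 26.1% of all genes past it. For Pecam1 they did not. The median log2 difference of the 9 was -1.10, against -0.05 over all genes. Centring each array on its 75th percentile moved that median of all genes to 0.10 and the share of calls that were lower from 51% to 29.3%, while the 9 genes stayed negative.

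Stab2 (stabilin-2), a scavenger receptor that clears hyaluronan, had signals of 2758 and 1922 in the wild-type female and male pools and of 800.2 and 749.7 in the knockout female and male pools. The groups did not overlap, and the log2 difference was -1.55 ± 0.24 (SE, n = 2 pools a genotype, limma adjusted p = 0.0374), or 2.93-fold lower. Oit3, a zona pellucida domain protein of the liver, had signals of 1111 and 757 in the wild-type female and male pools and of 402.8 and 304.8 in the knockout pools in the same order. It was lower by a log2 difference of -1.35 ± 0.24 (SE, n = 2, limma adjusted p = 0.0461), again with no overlap. These calls are close to the threshold. Neither gene was called without the sex term, without an intensity trend or in a model over all 10 arrays, while the direction held in each. With 1 of the 4 pools left out only that model could be fitted, over the 9 remaining arrays, and it again called neither gene, whichever pool was left out. Over the 14 alternative settings the log2 difference was -1.86 to -1.24 for Stab2, with adjusted p of 0.0039 to 0.789, and -1.80 to -0.89 for Oit3, with adjusted p of 0.0132 to 0.892.

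The other 4 sinusoidal genes were also below wild-type in both sexes but did not pass the test. Clec4g (LSECtin, a lectin of the sinusoidal surface) had signals of 4812 and 3510 in wild-type females and males and of 1777 and 2038 in knockout females and males, a log2 difference of -1.10 ± 0.24 (SE, limma adjusted p = 0.0761). Fcgr2b, the inhibitory IgG receptor with which sinusoids take up immune complexes, had signals of 3853 and 3091 in wild-type and 1423 and 1957 in knockout liver in the same order of sexes, a difference of -1.04 ± 0.26 (SE, limma adjusted p = 0.0986). Both genes had no overlap between genotypes. Stab1, the other stabilin, had signals of 928 and 702.5 against 402.8 and 542.8, a difference of -0.77 ± 0.28 (SE, limma adjusted p = 0.198). Lyve1, a hyaluronan receptor of sinusoids and lymphatics, had signals of 358 and 415 against 210.5 and 270.2, a difference of -0.66 ± 0.27 (SE, limma adjusted p = 0.243). In the female pools the difference exceeded that of the male pools for all 6 sinusoidal genes, for example -1.17 and -0.36 for Stab1 and -1.43 and -0.65 for Fcgr2b, and this contrast between the sexes was not tested. The wild-type female pool also stood apart in clock genes, with Arntl at 911.5 against 22.2 to 85.2 and Dbp at 190.6 against 8414 to 11097 in the other 3 young pools, and the part of sampling time in the endothelial values was not tested.

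Among the general endothelial genes the size of the difference varied from gene to gene. Kdr (VEGFR2, the main VEGF receptor of endothelium) had signals of 1209 and 835 in the wild-type female and male pools and of 528.0 and 389.7 in the knockout pools, a log2 difference of -1.12 ± 0.23 (SE, limma adjusted p = 0.0664). Cdh5 (VE-cadherin, of the junctions between endothelial cells) had signals of 349 and 343 against 273.0 and 232.0, a difference of -0.43 ± 0.27 (SE, limma adjusted p = 0.426). Kdr was thus close to the sinusoidal genes in size, and Cdh5 had the smallest difference among the genes tested. A dim second Cdh5 probe set, with a mean signal of 85.1, gave -0.05 in females and -2.45 in males. Its knockout male signal of 5.9 is near the floor. Pecam1 (CD31, an adhesion molecule) had signals of 142.0 and 68.8 against 68.7 and 112.3, which overlap, and a difference of -0.15 ± 0.60 (SE, limma adjusted p = 0.946 without the filter). Esm1 (endocan, a secreted proteoglycan of VEGF-stimulated and tip endothelium) had signals of 67.3 and 43.7 against 10.3 and 3.1. Both knockout values are under the constant of 16.8 added before taking logs, so its difference of -1.62 ± 1.22 (SE, limma adjusted p = 0.51) depends on that constant.

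**Figure D1:**
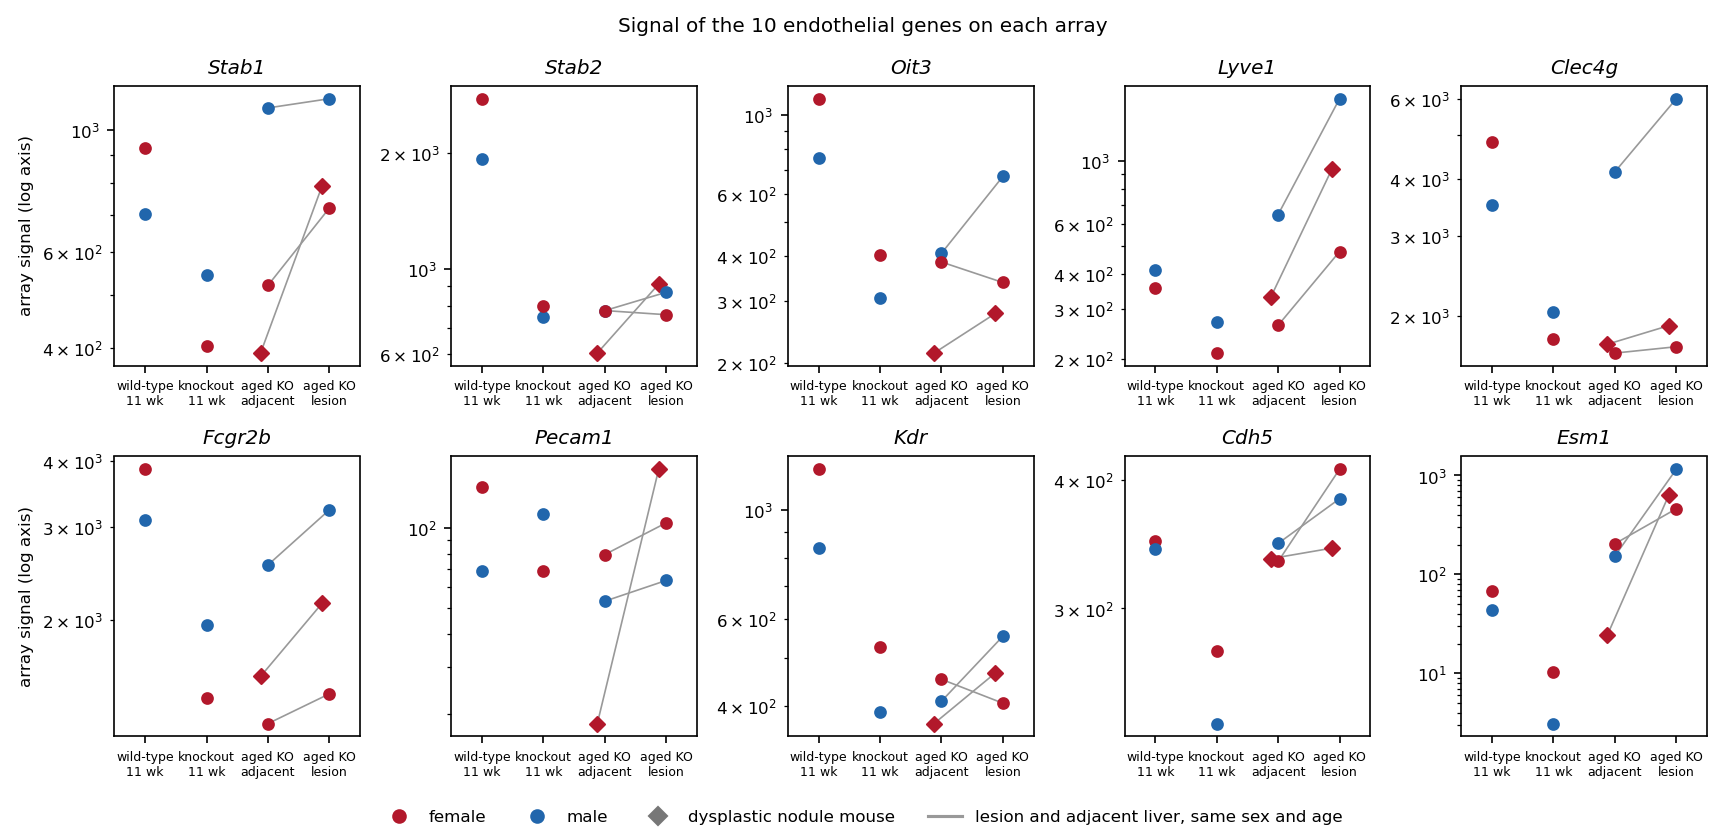
Array signal (log axis, a scale of its own per panel) of each of the 10 genes in the 2 wild-type and 2 knockout pools of 11 weeks and in 3 pairs of adjacent liver and lesion of aged knockout mice; each point is 1 array, red female and blue male, and grey lines join tissues of the same sex and age. Stab2, Oit3 and Kdr sit below both wild-type pools on all 8 knockout arrays, while Esm1 and Lyve1 are higher in the lesion in each of the 3 pairs.

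Both classes were lower in knockout liver, and the gap between them depended on which general genes were counted. With each gene centred on its mean over the 10 arrays, the 6 sinusoidal genes averaged -1.08 ± 0.35 (SD over the 2 sexes) in knockout minus wild-type liver and the 4 general genes -0.83 ± 0.25 (SD). The sinusoidal mean was lower than the general mean by a further -0.25 ± 0.10 (SD), or by -0.51 ± 0.02 (SD) with Esm1 left out, where the mean of Pecam1, Kdr and Cdh5 was -0.57 ± 0.33 (SD). These are means over chosen genes and carry no test. They include Pecam1, which did not pass the filter. Among genes past the filter, the median difference was -1.07 for the 6 sinusoidal genes and -1.12 for the 3 general genes. Within the general class, Kdr was at -1.17 and -1.07 in females and males, Cdh5 at -0.34 and -0.53, and Pecam1 at -0.89 and 0.59, so the genes of that class did not share a size.

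Most other endothelial genes had negative differences too. Of 18 further sinusoidal genes 16 passed the filter, 15 had a negative difference and the list's median was -0.76. The called members were F8, coagulation factor VIII, which the liver's endothelium makes (signals 655 and 615 in wild-type females and males, 212.5 and 241.3 in knockout, log2 difference -1.42 ± 0.26 SE, limma adjusted p = 0.0481), and Dnase1l3, a secreted nuclease (1428 and 1390 against 580.3 and 456.2, -1.42 ± 0.23 SE, limma adjusted p = 0.0399). Of 27 further general endothelial genes all passed the filter, 26 had a negative difference and the median was -0.70. The called member was Ptprb (VE-PTP, a phosphatase of endothelial junctions), with signals of 2930 and 2438 against 1307 and 983 and a difference of -1.23 ± 0.22 (SE, limma adjusted p = 0.0484). Over all genes the 194 calls of this comparison became 1 in the model over all 10 arrays, and 0 to 6 in that model with 1 pool left out. The exception among the sinusoidal genes was Cd36, a fatty acid transporter that hepatocytes also make, at 1.29 ± 0.28 (SE, limma adjusted p = 0.0725).

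Genes of capillary and vessel growth were lower as a list by a median of -0.47 (10 of 14 past the filter, 0 called), with Angpt2, the Tie2 ligand of vessel remodelling, at -1.65 ± 0.88 (SE) and Mcam, an adhesion molecule of endothelium and pericytes, at -0.86 ± 0.73 (SE), limma adjusted p = 0.349 and 0.562. Angpt2 was at -3.49 in females, where the knockout signal of 2.4 is under the added constant, and at 0.18 in males. Among ligands that act on endothelium, 7 of 11 passed the filter, 0 were called and the median was -0.66, with Angpt2 again and Vegfb, a ligand of VEGFR1, at -1.19 ± 0.38 (SE, limma adjusted p = 0.16). Macrophage genes had negative differences too. All 14 Kupffer cell and macrophage markers had a negative difference, with a median of -0.56 and 0 called, and their summed signal was 31569 and 21158 in the wild-type female and male pools and 18340 and 17660 in the knockout pools. Stab1, Lyve1 and Fcgr2b are also made by macrophages, and the part of that shift in their values was not tested. Stellate cell markers had a median of 0.10 and hepatocyte markers of -0.15. The Actb 3′ to 5′ ratio, a sign of RNA integrity, was 2.62 and 2.60 with Gnmt and 3.18 and 3.38 without it, and its part was not tested.

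**Figure D2:**
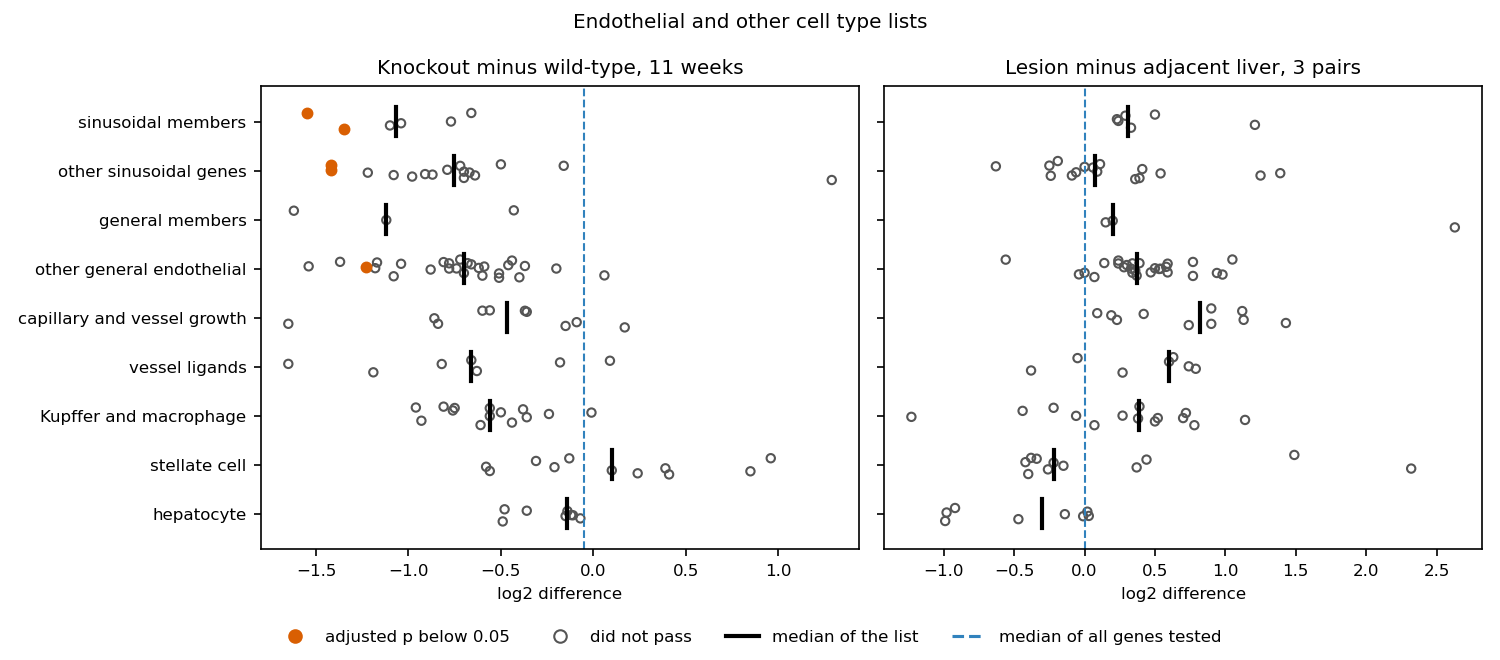
Log2 difference of each gene past the filter in 9 lists for knockout minus wild-type liver at 11 weeks (left) and for lesion minus adjacent liver over 3 pairs (right); filled points had an adjusted p below 0.05, black bars are list medians and the dashed line is the median of all genes. On the left the medians of all lists but the stellate one lie below the dashed line, that of the hepatocyte list nearest to it at -0.15. On the right the vessel growth list lies farthest above it with a median of 0.82.

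No endothelial gene was called between the sexes. Of the 9 genes 0 were called in females against males at 11 weeks by limma, where 0.281% of all genes were called and 9.19% had an unadjusted p under 0.05. None of the 9 had an unadjusted p under 0.05. The largest values were Kdr at 0.47 ± 0.23 (SE), Oit3 at 0.46 ± 0.24 (SE) and Esm1 at 0.46 ± 1.22 (SE), and those of Oit3 and Esm1 turned negative, at -0.15 and -0.34, in the model over all 10 arrays. Stab1, Clec4g and Fcgr2b were higher in the female than in the male wild-type pool and lower in the female than in the male knockout pool, so that their sex difference depended on genotype in sign, without a test. In the further lists 0 genes were called, and the values largest in size were Rspo3, a Wnt amplifier of central vein endothelium, at 0.75 ± 0.32 (SE) and Cd36 at 0.54 ± 0.28 (SE) among sinusoidal genes, and Erg at 0.97 ± 0.63 (SE) and Cd93 at 0.86 ± 0.31 (SE) among general genes. Erg was at -0.05 in wild-type and 1.99 in knockout pools, with a knockout male signal of 16.4, under the added constant.

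In aged knockout mice the lesions carried more Esm1 and Lyve1 signal than their adjacent liver in each of 3 pairs, with 0 of the 9 genes called by limma. Over all genes, 0.00907% were called across the 3 pairs and 9.99% had an unadjusted p under 0.05. Lesion exceeded adjacent liver in all 3 pairs for 6 of the 9 genes past the filter, where 16% of all genes past it did so. Of these 6, Esm1 passed the filter only through its lesions. Pecam1, which did not pass, was also higher in lesion in all 3 pairs. Adjacent exceeded lesion in all 3 pairs for 0 of the 10 genes (16.4% of all genes past the filter). Stab2, Oit3 and Kdr were higher in lesion in 2 of 3 pairs.

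Esm1 had signals of 24.5 in the nodule's adjacent liver and 637 in the nodule, of 153.6 and 1157 in the male's adjacent liver and HCC, and of 204.1 and 461 in the female's. The lowest lesion was above the highest adjacent liver. Log2 differences were 3.99, 2.78 and 1.11, with a fitted value of 2.63 ± 0.52 (SE, n = 3 pairs, limma adjusted p = 0.216) over all lesions and of 1.95 ± 0.42 (SE, n = 2 pairs, limma adjusted p = 0.166) over the HCC pairs alone. Over the alternative settings the value was 1.95 to 3.38 for all lesions, with adjusted p of 0.089 to 0.999, and 1.86 to 3.62 for HCC, with adjusted p of 0.138 to 1. The value of 3.38 was found without the female HCC pair, and 3.62 without the same pair in a model over the other 8 arrays with no pairing. Esm1 passed the filter through its lesions, since its mean log2 value over the 7 other arrays was 5.99 and the filter stood at 6.75, so these values are a description. Without the filter the limma adjusted p was 0.318 for all lesions and 0.268 for HCC. Its range over the 10 arrays was 5.88 log2 units, where the median gene ranged over 1.34 and the 90th percentile was 2.84.

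Lyve1 had signals of 331 in the nodule's adjacent liver and 941 in the nodule, of 648 and 1658 in the male's adjacent liver and HCC, and of 264 and 479.8 in the female's. Each lesion exceeded its own adjacent liver, but the female HCC was below the male's adjacent liver, so the groups overlap. Log2 differences were 1.46, 1.33 and 0.82, with a fitted value of 1.21 ± 0.22 (SE, n = 3 pairs, limma adjusted p = 0.214) and of 1.08 ± 0.29 (SE, n = 2 pairs, limma adjusted p = 0.305) in HCC alone. Over the alternative settings the value was 1.08 to 1.40 for all lesions, with adjusted p of 0.117 to 0.999, and 0.67 to 1.55 for HCC, with adjusted p of 0.298 to 1. A second Lyve1 probe set with a mean signal of 338.2 gave 1.78, 0.83 and 0.98 in the same order. Lyve1 also marks lymphatic endothelium and some macrophages. Of 5 lymphatic markers 4 were named on the array, and their summed signal was 2025 in the nodule against 2922 beside it, 4828 against 2583 in the male HCC pair and 6253 against 2135 in the female pair. In the HCC pairs the difference lay mainly in Flt4 (VEGFR3), which sinusoids make too, at 3285 against 1333 and 4672 against 949, while the lymphatic markers Pdpn and Mmrn1 did not reach the filter. In the nodule pair Flt4 was also higher in the lesion, at 1138 against 747. The lower sum there lay mainly in Prox1, at 823.8 against 2067.5. With Flt4 and Prox1 the only 2 of these markers past the filter, the sum does not measure lymphatic vessels alone. The part of lymphatic vessels in the Lyve1 values was not tested.

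The scavenger receptors and Clec4g were closer between lesion and adjacent liver. Stab1 had signals of 391 beside the nodule and 791 in it, 1099.5 and 1143 in the male pair and 520.4 and 721 in the female pair, with a fitted difference of 0.50 ± 0.24 (SE, limma adjusted p = 0.548). Stab2 stayed between 603.6 and 911.7 on all 6 aged arrays, at 912 in the nodule against 604 beside it, 868 against 778 for the male's HCC and 759 against 778 for the female's. Clec4g was at 1905 against 1734 in the nodule pair, 6001 against 4145 in the male pair and 1712 against 1657 in the female pair. For Clec4g, Stab1, Oit3 and Fcgr2b, but not Stab2 or Lyve1, both arrays of the male were above all 4 arrays of the aged females, whatever the tissue. Oit3 was at 276.5 against 213.8, 671 against 408 and 338 against 386, and Fcgr2b at 2146 against 1561, 3227 against 2538 and 1447 against 1271. Fitted differences of Stab2, Oit3, Clec4g, Fcgr2b, Kdr and Cdh5 lay between 0.15 and 0.33, with none called. The 3 other bright Fcgr2b probe sets were not uniform in sign over the pairs. A dim second Clec4g probe set, with a mean signal of 40.9, was lower in lesion in each pair, at -0.20, -0.11 and -0.35.

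General endothelial genes differed among themselves in the lesions. Kdr was at 467 against 368.5 in the nodule pair, 554 against 409 in the male HCC pair and 405 against 453 in the female. Cdh5 was at 343.3 against 335.3, 383 against 347 and 409 against 333, the narrowest range of the 10 genes at 0.78 log2 units over all arrays. A dim second Cdh5 probe set, with a mean signal of 85.1, gave log2 differences of 0.03, 1.02 and 0.87 in the same order. Pecam1 was at 165.9 against 18.4 in the nodule pair, 63.4 against 53.0 for the male's HCC and 104.3 against 79.3 for the female's, with a fitted value of 0.97 ± 0.57 (SE, limma adjusted p = 0.707 without the filter) in which the nodule pair, with a dim signal beside the nodule, had the largest difference at 2.38. In the nodule alone, 1 array against 1 with no test, Esm1 was 15.8-fold, Pecam1 5.19-fold, Lyve1 2.75-fold and Stab1 1.98-fold above adjacent liver, where 7.84% of all genes were at least 2-fold higher and 3.87% at least 2-fold lower. The macrophage marker sum was 33348 in the nodule against 16623 beside it, with 7 of 14 markers at least 2-fold higher, and its part in the nodule's values was not tested. The same sum was 42679 against 38274 and 32857 against 32115 in the HCC pairs.

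**Figure D3:**
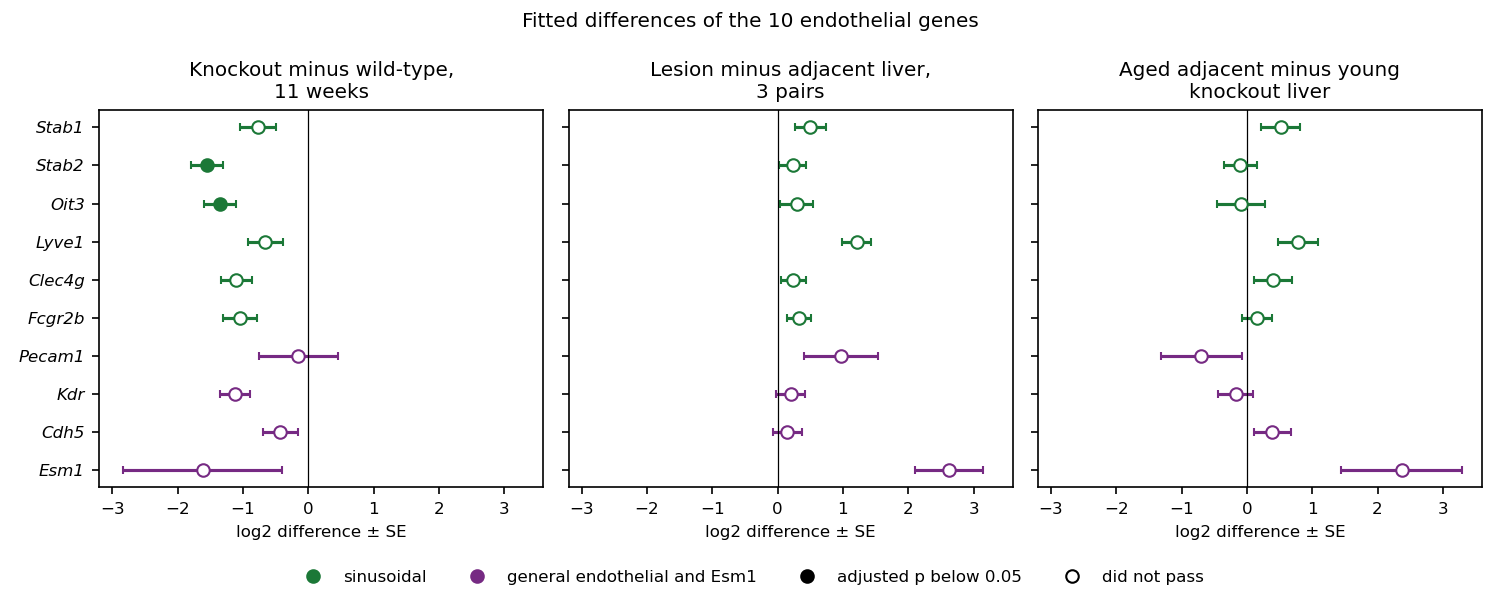
Fitted log2 difference with its standard error for the 10 genes in 3 comparisons: knockout minus wild-type at 11 weeks (4 pools), lesion minus adjacent liver (3 pairs) and aged adjacent minus young knockout liver (3 arrays and 2 pools); filled points had an adjusted p below 0.05, and the Pecam1 values are from the fit without the filter. Only Stab2 and Oit3 in the left panel are filled. Esm1, whose young knockout signals are under the constant added before logs, has the highest value in the other panels, 2.63 and 2.37.

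By class, the lesions were higher by 0.47 ± 0.23 (SD over 3 pairs) for the sinusoidal mean and by 0.99 ± 0.65 (SD) for the general mean. The difference between them, -0.52 ± 0.44 (SD), rests on Esm1, because without it the general mean was 0.44 ± 0.41 (SD) and the difference 0.03 ± 0.26 (SD). Without Esm1, the difference between the classes was smaller than its spread over pairs. The lists differed, again with 0 called in any of them. Hepatocyte markers had a median of -0.30 in the lesions, with 8 of 8 lower in the nodule, and the 18S 3′ probe set had signals of 20.9, 19.5 and 21.5 in the nodule, the male HCC and the female HCC against 79.9, 57.3 and 79.1 beside them. The part of both in the endothelial values was not tested. Further general endothelial genes had a positive difference in 24 of 27, with a median of 0.37, led by Emcn, an endothelial sialomucin, at 1.05 ± 0.30 (SE, limma adjusted p = 0.353) and Cd93 at 0.98 ± 0.30 (SE, limma adjusted p = 0.381). Vessel growth genes were positive in 10 of 10, with a median of 0.82, led by the basement membrane collagens Col4a1 at 1.43 ± 0.42 (SE, limma adjusted p = 0.377) and Col15a1 at 1.13 ± 0.62 (SE, limma adjusted p = 0.60). By pair, in the order nodule, male HCC and female HCC, Col4a1 was at 2.03, 0.07 and 2.20 and Col15a1 at 2.47, -0.77 and 1.70, so the male pair did not share the difference. Collagens of the stellate list were larger, Col1a1 at 2.32 ± 0.74 and Col3a1 at 1.49 ± 0.38 (SE, limma adjusted p = 0.395 and 0.329). By pair they were at 4.42, 0.01 and 2.52 and at 2.12, 0.25 and 2.09. The stellate list was positive in 4 and negative in 7 of 11, with a median of -0.22. The part of matrix in the vessel growth values was not tested. Further sinusoidal genes were positive in 9 and negative in 6 of 16, with a median of 0.07 beside 0 for all genes, with Flt4 at 1.39 ± 0.32 (SE, limma adjusted p = 0.283) and Bmp6, the endothelial signal for hepatocyte hepcidin, at 1.25 ± 0.40 (SE, limma adjusted p = 0.399). Ligands had a median of 0.60, led by Hgf at 0.79 ± 0.34 (SE) and Angpt2 at 0.74 ± 0.39 (SE), limma adjusted p = 0.522 and 0.584. In the HCC pairs alone, where 0.109% of all genes were called and 7.67% had an unadjusted p under 0.05, the medians were 0.37 for the general list, 0.52 for vessel growth and 0.04 for the sinusoidal list.

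Aged adjacent knockout liver gave no called gene against young knockout liver, by limma over all 11021 genes (0%), and 12.4% had an unadjusted p under 0.05. Esm1 was 24.5, 153.6 and 204.1 in the 3 adjacent livers against 10.3 and 3.1 in the young knockout pools, a log2 difference of 2.37 ± 0.93 (SE, limma adjusted p = 0.396). Both young values are under the added constant of 16.8, so this difference depends on that constant, and Esm1 passed the filter only through its lesions. Cdh5 was 333.2 to 346.9 against 273.0 and 232.0, a difference of 0.39 ± 0.28 (SE, limma adjusted p = 0.567). These 2 of the 10 genes had all 3 adjacent livers above both young pools, where 17.1% of all genes did. Lyve1 was 0.78 ± 0.31 (SE, limma adjusted p = 0.397) higher, with overlap. Stab2, Oit3 and Kdr were at -0.10 ± 0.25, -0.09 ± 0.37 and -0.17 ± 0.27 (SE), and on all 8 knockout arrays, young, adjacent and lesion, each lay below both wild-type pools. That holds for 3 of the 10 genes and for 7.3% of all genes. Without an aged wild-type liver, age and genotype cannot be told apart for the aged arrays. Young and aged knockout arrays are also the ones that differ in the spiked controls.

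The aged mice differed from each other. The male with HCC had higher Clec4g (4145 and 6001), Stab1 (1099.5 and 1143), Oit3, Lyve1 and Fcgr2b in both tissues than either female had in the matching tissue, for example Clec4g of 1657 to 1905 over the 4 female arrays. Its sinusoidal mean was 0.29 in adjacent liver and 0.81 in HCC, against -0.64 and -0.49 in the females' adjacent livers and 0.02 and -0.28 in their lesions. The young wild-type female and male pools were at 0.78 and 0.44, although Stab2 and Oit3 were below both of these pools on the male's arrays too. The male's mean of Pecam1, Kdr and Cdh5 was -0.24 and 0.01, inside or near the females' values of -0.64 to 0.28. The summed signal of the 27 further general endothelial genes was higher in the male, at 13359 in adjacent liver and 18131 in HCC. In the females it was 10835 and 12131 in adjacent livers and 14791 and 13040 in lesions. The male's macrophage sums, 38274 and 42679, were also the highest of the aged mice, and their part was not tested. These values are of 1 mouse, also the only aged male, so sex, age and individual cannot be told apart. It also had the lowest Dbp, at 42.2 and 213.6, and the highest Arntl of the aged mice, at 847.2 and 553.2.

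**Figure D4:**
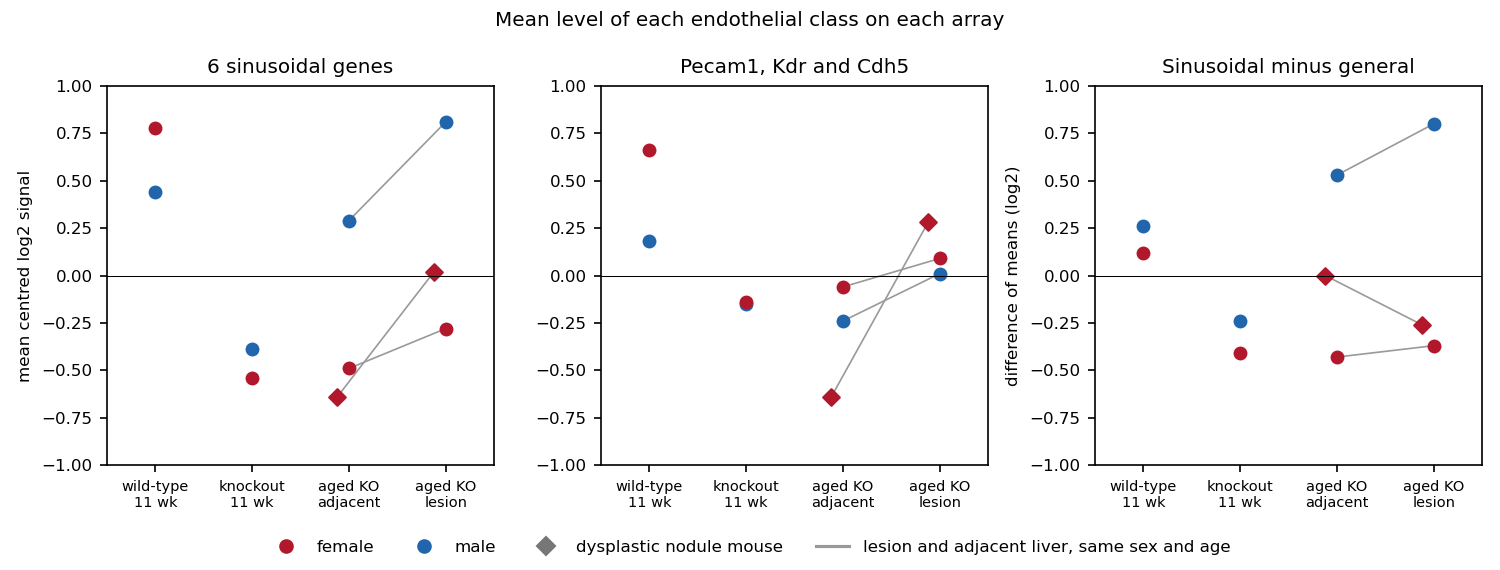
Mean centred log2 signal of the 6 sinusoidal genes (left), of Pecam1, Kdr and Cdh5 (middle) and the difference between them (right) on each of the 10 arrays; red female, blue male, diamonds the nodule mouse, and grey lines join tissues of the same sex and age. The male HCC mouse lies at 0.53 and 0.80 in the right panel, above the other 8 arrays, and both wild-type pools (0.12 and 0.26) lie above both young knockout pools (-0.41 and -0.24).

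The genes whose centred profile over the 10 arrays was nearest to the sinusoidal mean, by root mean square difference among 11012 genes, were Mmrn2 (0.11), Mrc1 (0.14), Chpf2 (0.19), Esam (0.20) and Gpr39 (0.20), where the median gene was at 0.66. Mmrn2 is an endothelial matrix protein, Mrc1 the mannose receptor of sinusoids and macrophages, and Esam an endothelial junction protein. Mmrn2, for example, had signals of 678 and 585 in wild-type liver, 247 and 293 in young knockout liver, 206.3 to 467.9 in adjacent liver and 288 to 639 in lesions. For the general mean without Esm1 they were Nptx1 (0.14), Egfl7 (0.17), Ppp1r21 (0.17), Tbc1d5 (0.18) and Tgoln1 (0.19), with the median gene at 0.52. Egfl7 is secreted by endothelium. With 10 arrays that share the same 5 groups, nearness describes the profile only.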

How the data were processed

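Total RNA of mouse liver was measured on 10 Affymetrix arrays. Per the labels, the authors labelled 5 ug of RNA and computed the values with GCOS, of a version not given in the sources used here. The deposited values are intensity, 1 linear signal per probe set (45101, of which 64 are controls), and each array's trimmed mean (2% left out at each end) is 500. No detection call was used. Precision is limited by how few arrays there are.

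Gene names came from the platform annotation, with 34945 probe sets to a single gene. A constant of 16.8 (the 20th percentile over the table) was added to each signal before log2. Each gene kept its probe set of highest mean signal, and 11021 of 18194 genes passed a filter on their mean log2 value (above that of the median signal, 91). Models were fitted with limma 3.58.1 (lmFit and eBayes with an intensity trend) in R 4.3.3, adjusted by Benjamini-Hochberg over the 11021 genes and called below 0.05. Terms were sex or genotype at 11 weeks, the mouse for lesion pairs, and sex for aged against young knockout liver. Few residual degrees of freedom remain, and the calls lean on the variance prior that all genes share. The procedure was run on simulated data whose variances were drawn from that same prior, so the run cannot check the prior.

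All 10 genes are named in each comparison. From the lists of other endothelial genes, called genes are named (at most 4), or else the 2 with the largest difference, and nearest profiles are the 5 with the smallest root mean square difference. The 10 genes and the lists were chosen with earlier results of these data known. Alternatives covered the constant, normalization, filter, trend, terms, probe sets and left-out arrays.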

Additional observations from a re-analysis of the deposited data

Results flagged for a closer look

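In 4 results the pools or pairs of the sexes lay on opposite sides of 0, and none of these differences was tested. HCC minus adjacent liver was 0.15 in the male and -0.03 in the female for Stab2, 0.70 and -0.18 for Oit3, and 0.42 and -0.15 for Kdr, on the log2 scale with 1 pair a sex. Knockout minus wild-type at 11 weeks was -0.89 in females and 0.59 in males for Pecam1, whose signals of 68.7 to 142.0 on those arrays are dim. Groups of 4 or more arrays, which a test for outlying arrays would need, were not part of this design.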

How the results depend on the processing

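The number of endothelial genes called in knockout against wild-type liver, 2, was 5 with quantile normalization and 4 with all probe sets as single features. It was 1 without the filter on dim genes and 1 with a filter on mean signal, an alternative chosen after seeing the data. It was 0 without an intensity trend, in the model over all 10 arrays and without the sex term, and 0 with each pool left out in turn, which could be fitted only in the model over the remaining arrays. The calls over all genes went from 194 to 631, 616, 138, 88, 1, 1 and 2 in the same order of settings, and 317 with 75th percentile centring. They were 0 to 6 without single pools in that model. The cause was not tested. The genotype direction of all 9 genes tested held in all 14 settings. Without the male pair, calls over all genes were 165 for HCC in a model over the other 8 arrays with no pairing (12 in the fit reported, 1 in that model over all 10 arrays), where the lone HCC array is assumed to vary like the other groups, and 165 for all lesions over the remaining pairs (1 in the fit reported). They were 366 and 153 for aged adjacent against young knockout liver (0) without the young knockout female pool and without the liver beside the nodule; 0 endothelial genes were called in each. The sinusoidal minus general difference between genotypes was -0.13 with the added constant 2-fold smaller, -0.36 with it 2-fold larger and -0.51 without Esm1. Between the sexes it was -0.11 with quantile normalization and -0.32 over all probe sets. In HCC it was 0.16 without Esm1 and -0.46 over all probe sets, in all lesions 0.03, in the nodule -0.25 and in aged adjacent liver 0.44 without Esm1. Of 643 alternatives for single genes, 589 kept direction and side of the threshold and 33 reversed, all but 3 of differences between the sexes or between aged adjacent and young knockout liver. Between the sexes these were Cdh5 at -0.02 with quantile normalization, and Oit3 at -0.15, Clec4g at -0.75 and Esm1 at -0.34 in the model over all 10 arrays. In that model, leaving out 1 pool each gave -0.10 to 0.03 for Stab2, -0.36 to -0.32 for Oit3, -1.11 to -0.92 for Clec4g, 0.00 to 0.03 for Kdr and -0.59 to -0.58 for Esm1. In aged adjacent liver, Fcgr2b was -0.04 with 75th percentile centring, and leaving out arrays gave -0.22 to 0.05 for Stab2, -0.46 to 0.40 for Oit3, -0.07 to 1.02 for Clec4g, -0.02 to 0.37 for Fcgr2b and -0.36 to 0.07 for Kdr. In HCC, Kdr was -0.01 to 0.63 with 1 pair left out, in the unpaired model over the other 8 arrays. In the nodule, Cdh5 was -0.08 with quantile normalization and -0.09 with 75th percentile centring. Without a replicate block for the mouse, HCC and all lesions had 0 genes called, as against 12 and 1 with it, and 0 endothelial genes either way; the pairing rests on shared sex and age, since the labels carry no replicate numbers.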
